A study of Mus musculus with 6 samples.

Results

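The genes described here make and store glucose in the mouse liver: G6pc, Pck1, Fbp1, Pcx, Ppargc1a, Slc37a4, Gys2 and Pygl. They were chosen by name, as the array probes whose RefSeq accession maps to these 8 symbols. A probe was found for 7 of the 8, out of 18342 genes named on the arrays, and Pck1 is not analysed here. All 7 lay well above background on each of the 6 arrays, so the filter on dim probes removed none of them.

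Gluconeogenesis builds glucose from lactate, alanine and glycerol, and the hepatocyte is its main site. Pyruvate is first carboxylated in mitochondria by pyruvate carboxylase (Pcx), fructose bisphosphatase (Fbp1) bypasses a one-way step of glycolysis, and the glucose phosphate carrier (Slc37a4) with glucose-6-phosphatase (G6pc) releases free glucose in the endoplasmic reticulum. Glycogen is built by liver glycogen synthase (Gys2) and broken down by liver glycogen phosphorylase (Pygl). The coactivator Ppargc1a raises transcription of the gluconeogenic genes in fasting.

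RNA of 6 mouse livers was labelled with Cy3 and hybridised to 1 single-colour array each. All mice had the BL6 background and carried Fah_del_tm1Mgo, which removes fumarylacetoacetate hydrolase, the enzyme at the end of tyrosine catabolism. NTBC inhibits that catabolism upstream of the missing enzyme, and so protects the livers of such mice. The strain called FCR also carried Rag2_del_tm1Fwa and the deletion tm1Wjl of the common gamma chain, and mice of that genotype lack T, B and NK cells. The labelled tissue types were healthy Fah liver (n = 1), Fah tumor (n = 2), normal FCR liver (n = 1) and inflamed FCR liver (n = 2). The healthy and the normal liver were taken from mice that drank NTBC throughout, at 7.5 µg/ml, a dose given as 100%. Fah tumor and inflamed FCR liver each had 1 array of the regimen off (replicate 1) and 1 of 2xoff/on (replicate 2). The labels describe 2 courses of withdrawal and resupply for off and 2 cycles for 2xoff/on, and do not say in which phase a given liver was collected. These 4 arrays are called withdrawn below. Animal ages are not given in the labels, nor is it said that samples of a group were separate animals. P-values therefore measure a spread between these samples, which may be technical. In the fit of genotype and regimen, that spread is how far the genotype difference varies between regimens. In the fits of group means it also holds the difference between regimens.

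Both 2xoff/on arrays were on slide 2 and the other 4 on slide 1, which means that slide and the 2xoff/on regimen cannot be told apart. Of the 43379 spots of an array, 60.5% and 64.4% were well above background on continuous NTBC and 68.1% to 74.5% on the withdrawn arrays. None was saturated. The 75th percentile of the signal, to which each array is scaled below, also differed. It was 363 and 374 on the continuous Fah and FCR arrays, 811 in Fah off and 890 in Fah 2xoff/on. In FCR off it was 363 and in FCR 2xoff/on 722. The differences below therefore depend on the scale, and the cause of these shifts was not tested. The number of arrays limits the precision. The Il2rg probe was well above background on 3 of 3 Fah arrays and on none of the FCR arrays, the Rag2 probe on no array, and the Fah probe on all 6, where its position relative to the deletion is not known here. Hepatocyte markers were well above background on every array (9 of 9 measured, Alb among them). The first principal component over all tested genes, 54.1% of the variance, set both continuous arrays apart from the 4 others, and the second, 21.8%, set the FCR off array apart, at -104.3 against -7.96 to 53.0.

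Genes of glucose release and of glycogen turnover had lower signals in the withdrawn livers. Among the 7 genes, 4 were lower past the threshold in the withdrawn arrays than on continuous NTBC: Gys2, Slc37a4, G6pc and Pygl, by 2.41-fold to 3.25-fold. Pcx and Fbp1 had lower values that did not pass, and Ppargc1a, the regulator in the group, had 0.14 ± 0.34 (log2 difference ± SE). Over all 15381 genes tested, 8.22% were called lower and 13.9% higher, and the median difference was -0.02 against -1.27 for the 7 genes. The median of the 7 was -0.75 under quantile normalization and -0.80 in the authors' deposited values. The test was limma's, on a fit of genotype and regimen over all 6 arrays (4 withdrawn, 2 continuous), two-sided, with Benjamini-Hochberg adjustment over all genes at 0.05. In bulk liver, fewer hepatocytes and less of the RNA per hepatocyte cannot be told apart.

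**Figure D1:**
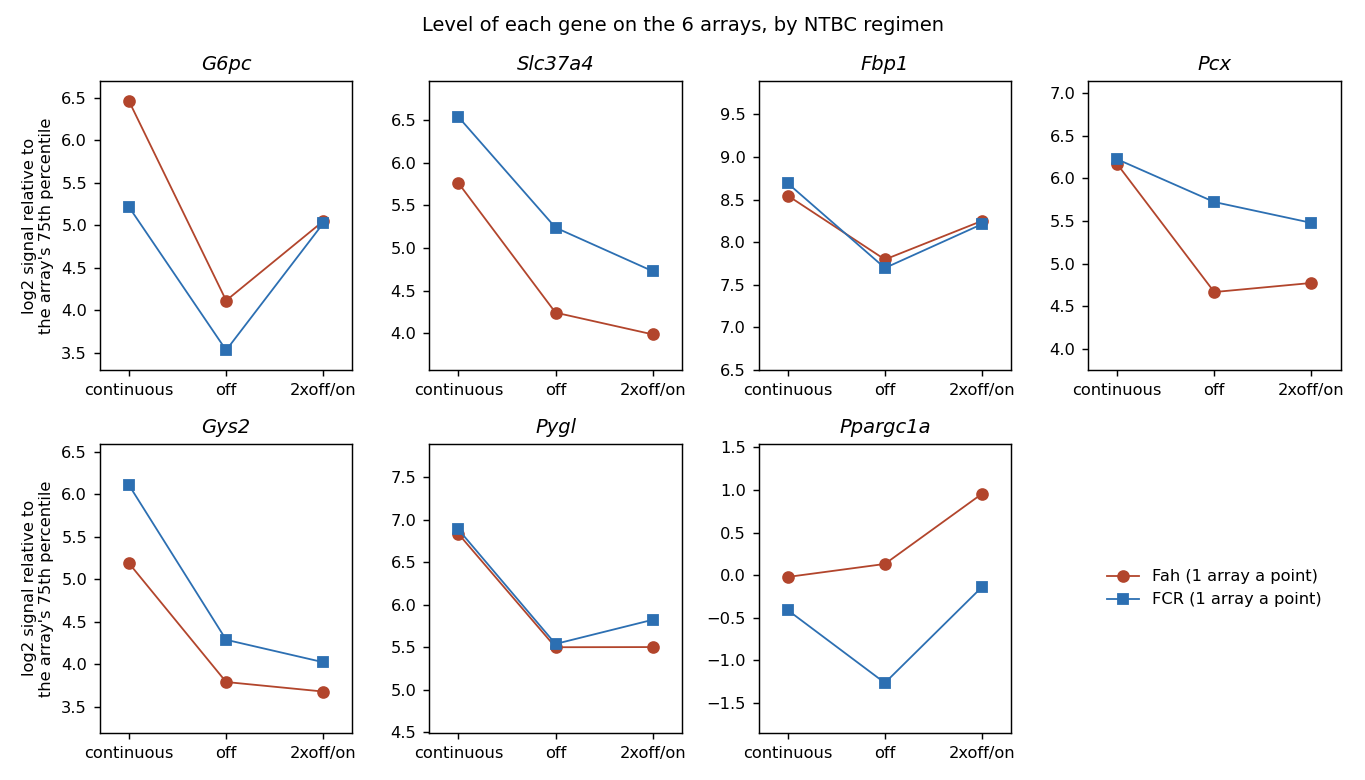
Level of each gene on each array, as log2 signal relative to that array's 75th percentile (y axis, the same span in every panel), by NTBC regimen (x axis) for Fah (circles) and FCR (squares); each point is 1 array and lines join arrays of a genotype. Gys2, Slc37a4 and Pygl fall from continuous NTBC to both other regimens, G6pc is lowest in off (4.12 and 3.53), and Ppargc1a lies within 0.96 to -1.27 with no common order.

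The final steps of glucose release come first. G6pc, the phosphatase itself, stood at 6.46 in Fah liver on continuous NTBC, 4.12 in Fah off and 5.05 in Fah 2xoff/on, in log2 units above the 75th percentile of its array. In FCR it stood at 5.22, 3.53 and 5.03 in the same order of regimens. Both off arrays were lowest, the 2xoff/on arrays were 0.02 apart, and the FCR 2xoff/on array came to within 0.19 of its continuous array without crossing it. Withdrawn minus continuous was -1.41 ± 0.37 (SE), a level 2.65-fold lower, with an adjusted p of 0.0287 by limma. The call was lost without the Fah off array (adjusted p = 0.0528), without the FCR off array (0.0599) and without the Fah 2xoff/on array (0.122), in a range of 0.0104 to 0.122 over the alternatives tried.

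Slc37a4, the carrier that brings glucose phosphate to that enzyme, stood at 5.76, 4.24 and 3.98 in Fah and at 6.54, 5.24 and 4.73 in FCR, on continuous NTBC, off and 2xoff/on. The 2 continuous arrays were the highest of the 6, and every withdrawn array lay at least 1.30 below the continuous array of its own genotype. The difference was -1.61 ± 0.32, 3.04-fold lower, with an adjusted p of 0.0109. FCR was the higher genotype under each regimen.

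Windows of 250 bases before the annotated start of transcription are shown for G6pc, Slc37a4 and Pygl, each called lower on withdrawal. The window of Fbp1, which did not pass, is shown too. The sequences are RefSeq's for GRCm38.p6, read 5′ to 3′ on the gene's strand; 7 of the 8 genes had an entry, with 3 windows for Slc37a4 and 2 for Pcx, 10 in all. Capitals mark matches on either strand to the motifs searched: the cAMP response motif TGACGTCA, its shorter form TGACG (part of the first), the insulin response motif CAAAACA, the forkhead motif GTAAACA, the C/EBP motif TTGCGCAA, the HNF4 motif CAAAGTCCA, the ERR motif TCAAGGTCA, the E-box CACGTG and the TATA motif TATAAA. G6pc is at chr11:101367466-101367715, plus strand, the first Slc37a4 window at chr9:44396696-44396945, plus, and its last at chr9:44398104-44398353, plus. Pygl is at chr12:70227684-70227933, minus, and Fbp1 at chr13:62888283-62888532, minus.
G6pc: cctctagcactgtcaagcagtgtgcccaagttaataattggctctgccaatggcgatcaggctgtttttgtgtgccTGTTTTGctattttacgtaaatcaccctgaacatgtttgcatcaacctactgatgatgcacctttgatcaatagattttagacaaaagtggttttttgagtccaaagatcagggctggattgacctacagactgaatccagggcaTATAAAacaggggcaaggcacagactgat
Slc37a4, first window: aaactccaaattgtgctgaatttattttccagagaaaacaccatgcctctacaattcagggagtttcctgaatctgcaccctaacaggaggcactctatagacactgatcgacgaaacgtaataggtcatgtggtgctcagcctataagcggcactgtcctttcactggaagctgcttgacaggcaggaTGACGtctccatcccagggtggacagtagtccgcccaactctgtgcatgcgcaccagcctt
Slc37a4, last window: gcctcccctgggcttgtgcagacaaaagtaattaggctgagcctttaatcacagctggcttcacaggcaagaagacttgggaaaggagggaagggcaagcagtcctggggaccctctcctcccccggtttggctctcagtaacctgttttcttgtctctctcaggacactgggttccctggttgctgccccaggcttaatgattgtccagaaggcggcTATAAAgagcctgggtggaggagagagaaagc
Pygl: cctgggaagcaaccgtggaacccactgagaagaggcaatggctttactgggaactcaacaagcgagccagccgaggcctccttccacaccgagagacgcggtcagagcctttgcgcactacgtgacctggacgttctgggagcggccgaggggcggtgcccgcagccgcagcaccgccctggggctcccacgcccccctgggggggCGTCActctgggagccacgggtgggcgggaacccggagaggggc
Fbp1: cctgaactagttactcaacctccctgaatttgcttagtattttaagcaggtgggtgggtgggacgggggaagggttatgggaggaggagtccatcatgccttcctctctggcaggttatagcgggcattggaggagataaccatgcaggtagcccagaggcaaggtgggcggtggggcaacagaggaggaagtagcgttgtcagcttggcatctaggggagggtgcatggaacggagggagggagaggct

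The short form TGACG was found in 5 of the 10 windows (Pck1, Ppargc1a, Pygl and 2 of Slc37a4) and in 17.8% of 32851 promoters of the same length. These 2 Slc37a4 windows overlap and share 1 of the matches, so they are not independent. TATAAA was in the windows of G6pc, 24 to 29 bases before the start, and of Slc37a4 (last window), against 12.4% of promoters. CAAAACA was in the G6pc window, on the reverse strand 168 to 174 bases before the start, against 5.56% of promoters, and CACGTG in 1 Pcx window against 6.02%. The letters of TGACGTCA, GTAAACA, TTGCGCAA, CAAAGTCCA and TCAAGGTCA were in none of the 10 windows and in 1.55%, 3.17%, 0.164%, 0.384% and 0.387% of promoters. A match is a match of letters, and no binding was measured.

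Earlier in the pathway, the fitted withdrawal differences of Fbp1 and Pcx were smaller than those of G6pc and Slc37a4. This order did not hold on every array. In FCR 2xoff/on the difference from the continuous array was -0.19 for G6pc, -0.48 for Fbp1 and -0.75 for Pcx. In Fah off it was -1.51 for Pcx, close to -1.52 for Slc37a4, and -2.35 for G6pc. Differences between genes were not tested. Fbp1 stood at 8.55, 7.79 and 8.25 in Fah and at 8.69, 7.69 and 8.21 in FCR, on continuous NTBC, off and 2xoff/on. The continuous arrays were highest and the off arrays lowest in both genotypes, and the 6 arrays spanned 0.996, the narrowest range of the 7 genes. Withdrawn minus continuous was -0.63 ± 0.42 with an adjusted p of 0.322. Under quantile normalization the value was 0.08 and in the authors' deposited values 0.15, so its direction depends on the scaling.

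Pcx, which feeds pyruvate into the pathway, stood at 6.17, 4.66 and 4.77 in Fah and at 6.23, 5.72 and 5.48 in FCR. The continuous arrays were nearly equal, and both withdrawn Fah arrays lay below both withdrawn FCR arrays. The difference of -1.04 ± 0.36 had an adjusted p of 0.0763. It passed without the FCR off array (-1.21, adjusted p = 0.0466) and with the array median as scale (-1.35, adjusted p = 0.0357), in a range of 0.0357 to 0.284 over the alternatives.

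The liver forms of glycogen synthase and phosphorylase were both called lower. Gys2, which adds glucose to glycogen, stood at 5.19, 3.79 and 3.68 in Fah and at 6.11, 4.29 and 4.02 in FCR. All 4 withdrawn arrays lay below both continuous arrays, with 2xoff/on slightly below off in each genotype. The difference was -1.70 ± 0.32, 3.25-fold lower, with an adjusted p of 0.00859. Pygl, which frees glucose phosphate from glycogen, stood at 6.84, 5.50 and 5.50 in Fah and at 6.89, 5.54 and 5.82 in FCR. Its 4 differences from the continuous array of the same genotype were alike, -1.35 to -1.06. The fitted difference was -1.27 ± 0.35, 2.41-fold lower, with an adjusted p of 0.0341. Without the Fah 2xoff/on array the adjusted p was 0.220 and without the FCR 2xoff/on array 0.119, in a range of 0.0175 to 0.220. Gys2 and Slc37a4 passed under all 12 alternatives tried, with adjusted p up to 0.0269 and 0.0292.

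Ppargc1a, the coactivator, followed another pattern than the enzymes. Its brighter probe stood at -0.02, 0.13 and 0.96 in Fah and at -0.41, -1.27 and -0.14 in FCR. Continuous and withdrawn arrays overlapped, and the adjusted p of the withdrawal difference was 0.810. The dimmer probe stood at -0.87, -0.47 and -0.49 in Fah and at -0.82, -0.36 and -1.35 in FCR. The probes disagreed: FCR off was the lowest array by the brighter probe and the highest by the dimmer one.

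Of the 7 genes, 6 had withdrawn and continuous arrays that did not overlap, lower on withdrawal in each case, against 20.9% of all genes. Within slide 1, off minus continuous was negative in both genotypes for G6pc (-2.35 in Fah, -1.68 in FCR), Slc37a4 (-1.52 and -1.30), Gys2 (-1.40 and -1.82), Pygl (-1.33 and -1.35), Pcx (-1.51 and -0.50) and Fbp1 (-0.75 and -0.996). These are single arrays with no test. Without the FCR off array, which stands apart from the rest, the withdrawal median of the 7 genes was -1.23, against -0.09 over all genes.

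**Figure D2:**
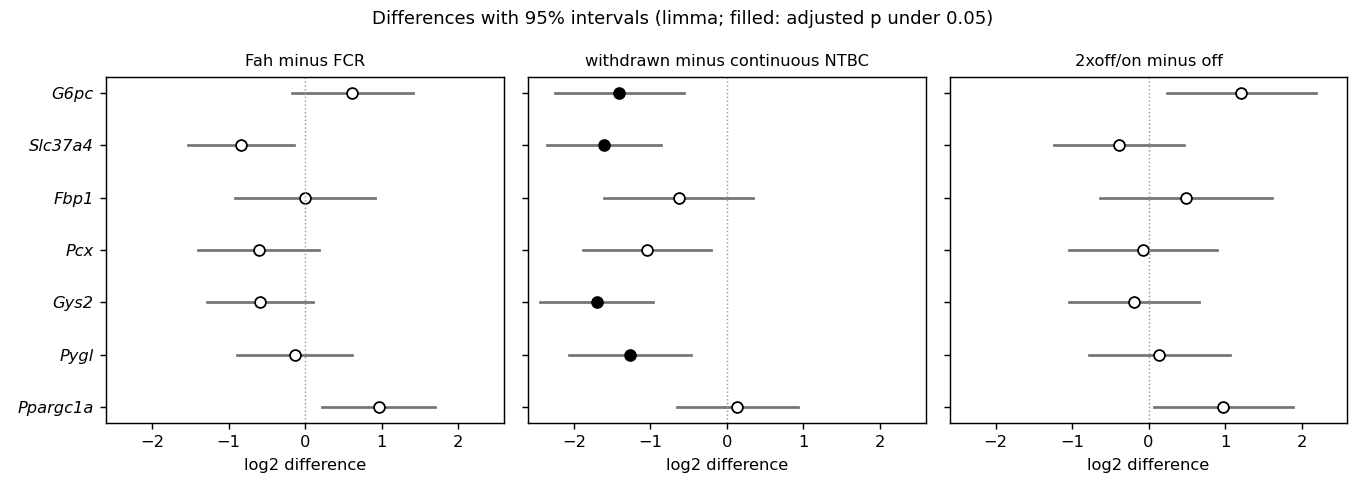
Log2 differences (x axis) of each gene with 95% intervals by limma in 3 comparisons over the same 6 arrays, Fah minus FCR, withdrawn minus continuous NTBC and 2xoff/on minus off; filled points have an adjusted p under 0.05. The filled points are G6pc, Slc37a4, Gys2 and Pygl in the withdrawal panel, at -1.41, -1.61, -1.70 and -1.27.

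The 2 withdrawn regimens were compared next, with 1 array of each genotype in each. None of the 7 genes passed, against 0.793% of all genes called. G6pc was 0.93 higher in 2xoff/on than in off in Fah and 1.49 higher in FCR, a fitted difference of 1.21 ± 0.42 with an unadjusted p of 0.0204 and an adjusted p of 0.212. Ppargc1a by its brighter probe gave 0.98 ± 0.39 (unadjusted p 0.0382, adjusted p 0.265), and by its dimmer probe -0.50. At an unadjusted p under 0.05 these were 2 of the 7 genes, against 17.2% of all genes. For Gys2, Slc37a4 and Pcx the values were -0.19 ± 0.37, -0.38 ± 0.37 and -0.07 ± 0.42, and for Pygl and Fbp1 0.14 ± 0.40 and 0.49 ± 0.49. Regimen and slide cannot be told apart here.

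Genotype was compared within each regimen, and so within slides, over 3 pairs of arrays. None of the 7 genes passed, against 0.293% of all genes called, and the median over all genes was -0.11. By its brighter probe Ppargc1a was higher in Fah than in FCR by 0.39 on continuous NTBC, 1.40 in off and 1.10 in 2xoff/on. Its fitted difference was 0.96 ± 0.32, with an unadjusted p of 0.0174 and an adjusted p of 0.339; the dimmer probe gave 0.23 ± 0.34. Slc37a4 was lower in Fah in each regimen, with differences of -0.78, -0.999 and -0.74, which fitted to -0.84 ± 0.30 (unadjusted p 0.0240, adjusted p 0.367). At an unadjusted p under 0.05 these were 2 of the 7, against 11.7% of all genes.

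G6pc, the other gene with higher values in Fah under all 3 regimens, differed by 1.25, 0.58 and 0.02, which fitted to 0.62 ± 0.34. Gys2 differed by -0.92, -0.50 and -0.34 and Pcx by -0.06, -1.06 and -0.71, with fitted differences of -0.59 ± 0.30 and -0.61 ± 0.34. Pygl gave -0.14 ± 0.33 and Fbp1 0.00 ± 0.40, with an interval for Fbp1 of -0.92 to 0.92. A like direction in all 3 pairs was seen upward for 2 of the 7 genes, against 13.1% of all genes, and downward for 4 of the 7 (Slc37a4, Gys2, Pcx and Pygl), against 24.6%. The upward count takes Ppargc1a by its brighter probe, as the dimmer one was lower in Fah on continuous NTBC and in off. The fitted value of Pygl turned to 0.31 under quantile normalization and 0.26 in the authors' deposited values.

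The groups named by the tissue labels were compared in a fit of 4 group means, in which a lone array was assumed to vary like the other groups. Fah tumor (n = 2) minus healthy Fah liver (n = 1) was -1.88 ± 0.74 for G6pc, -1.65 ± 0.56 for Slc37a4, -1.45 ± 0.53 for Pcx, -1.45 ± 0.54 for Gys2 and -1.33 ± 0.53 for Pygl. Fbp1 and Ppargc1a gave -0.52 ± 0.55 and 0.57 ± 0.73. None of the 7 passed (lowest adjusted p 0.138), against 5.06% of all genes, and 5 of the 7 had an unadjusted p under 0.05, against 18.6%. The inflamed FCR arrays enter this fit only through the shared spread. Leaving out either one kept the median of the 7 genes at -1.45, while calls rose among these genes and over all genes. With slide as a block G6pc passed (-2.49, adjusted p = 0.00572), and 2544 genes were called in place of 778. As slide 2 held only 2xoff/on arrays, the blocked value is a fitted difference of off minus continuous NTBC, not of both regimens.

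Inflamed (n = 2) minus normal FCR liver (n = 1) was -1.95 ± 0.54 for Gys2, -1.56 ± 0.56 for Slc37a4 and -1.20 ± 0.53 for Pygl. G6pc, Fbp1, Pcx and Ppargc1a gave -0.94 ± 0.74, -0.74 ± 0.55, -0.63 ± 0.53 and -0.29 ± 0.73. None passed (lowest adjusted p 0.125), against 1.76% of all genes, and 3 of the 7 had an unadjusted p under 0.05, against 14%. Gys2 passed without the off array (-2.08, adjusted p = 0.0470) and without the 2xoff/on array (-1.82, adjusted p = 0.0304).

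The difference between these responses, Fah minus FCR, was itself tested. No gene was called by limma among all 15381, at an unadjusted p under 0.05 there were 332 genes (2.16%), and none of the 7 was among them. The estimates were -0.94 ± 1.04 for G6pc with an interval of -3.31 to 1.43, -0.83 ± 0.75 for Pcx (-2.53 to 0.88) and 0.86 ± 1.03 for Ppargc1a (-1.49 to 3.20). For Gys2, Fbp1, Pygl and Slc37a4 they were 0.50, 0.21, -0.13 and -0.09, with standard errors of 0.75 to 0.79. These intervals leave room for differences as large as the responses themselves.

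Fah tumor minus inflamed FCR liver, 2 arrays against 2 under the same regimens, called none of the 7 genes, against 0.215% of all genes, and none had an unadjusted p under 0.05, against 9.19%. Ppargc1a gave 1.25 ± 0.60, Pcx -0.88 ± 0.43 and Slc37a4 -0.87 ± 0.45, with adjusted p of 0.599, 0.617 and 0.645. G6pc, Gys2, Pygl and Fbp1 gave 0.30 ± 0.60, -0.42 ± 0.44, -0.18 ± 0.43 and 0.07 ± 0.45. The median over all genes was -0.13. By size of difference, tumor stood below inflamed liver for Pcx (4.72 ± 0.076 against 5.60 ± 0.17, mean ± SD, n = 2 each), Slc37a4 (4.11 ± 0.18 against 4.98 ± 0.36), Gys2 (3.73 ± 0.079 against 4.15 ± 0.19) and Pygl (5.50 ± 0.0013 against 5.68 ± 0.20). The arrays of these 4 genes did not overlap, against 23.9% of all genes that were lower without overlap. By its brighter probe Ppargc1a was higher without overlap, against 16% of all genes. By its dimmer probe the groups overlapped, at -0.47 and -0.49 in tumor and -0.36 and -1.35 in inflamed liver. The direction depends on the scaling for Pygl (0.46 under quantile normalization, 0.40 in the authors' deposited values) and Gys2 (0.069 and 0.093). For G6pc (4.58 ± 0.66 against 4.28 ± 1.06) and Fbp1 (8.02 ± 0.32 against 7.95 ± 0.37) the groups were closer than their own spread.

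The design text of the series sets both tumor arrays against normal FCR liver and FCR 2xoff/on, which mixes regimens on the FCR side. Limma called none of 15175 genes there, 11.5% had an unadjusted p under 0.05, and of the 7 genes Pcx alone did (-1.13 ± 0.42, unadjusted p 0.0381, adjusted p 0.405). Slc37a4, Gys2, Pygl, G6pc, Fbp1 and Ppargc1a gave -1.52 ± 0.65, -1.33 ± 0.71, -0.85 ± 0.48, -0.54 ± 0.45, -0.43 ± 0.47 and 0.82 ± 0.47. Without FCR 2xoff/on the comparison called 3 of the 7 (Slc37a4, Gys2 and Pcx) and 2267 genes in all. All these comparisons share arrays and are not independent of each other.

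Of 7 other isoforms or relatives of these genes 2 rose on withdrawal (Pck2 and Fbp2), 1 fell (Ppargc1b) and 4 did not pass. Over all genes 13.9% rose and 8.22% fell. The 7 were picked after values were seen, and no difference between an isoform and its liver form was tested. Pck2, the mitochondrial form of phosphoenolpyruvate carboxykinase, stood at -1.79, 1.30 and 1.58 in Fah and at -1.01, 0.77 and 1.39 in FCR. It rose by 2.66 ± 0.36 on withdrawal (adjusted p = 0.00242), with all 4 withdrawn arrays above both continuous arrays. Fbp2, the muscle form of fructose bisphosphatase, stood at -7.22, -4.57 and -4.08 in Fah and at -5.37, -2.19 and -2.59 in FCR. It rose by 2.94 ± 0.45 (adjusted p = 0.00369), from levels near background: it was well above background on 1 of 2 continuous and 4 of 4 withdrawn arrays.

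Pygb, the brain form of glycogen phosphorylase, was higher than its own continuous array by 4.07 in Fah off, 3.41 in Fah 2xoff/on and 3.09 in FCR 2xoff/on, and stood at -0.61 from it in FCR off. The fitted difference of 2.49 ± 0.85 had an adjusted p of 0.0714. Pygm, the muscle form, gave 0.75 ± 0.60 and was not well above background in FCR on continuous NTBC or off. Gys1, the glycogen synthase of muscle and other tissues, gave 0.23 ± 0.55, and G6pc3, the widely expressed glucose-6-phosphatase, 0.60 ± 0.32, with adjusted p of 0.799 and 0.216. Ppargc1b, the relative of Ppargc1a, fell by 1.77 on the log2 scale (SE 0.32, adjusted p = 0.00746).

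**Figure D3:**
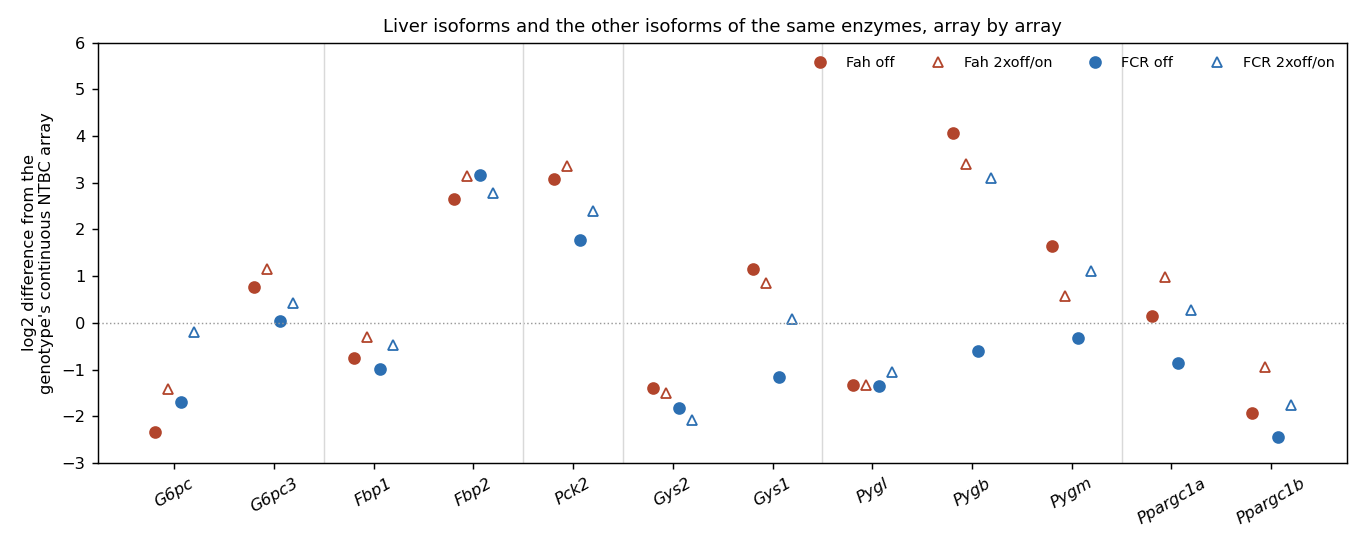
Log2 difference of each withdrawn array from the continuous NTBC array of its genotype (y axis) for the liver genes and the other isoforms of the same enzymes (x axis); Fah in red, FCR in blue, off as filled circles, 2xoff/on as open triangles, 1 array a point. All 4 points of Pck2 and Fbp2 lie above 0 and all 4 of Gys2 and Pygl below it, while Pygb has 3 points above 3 and FCR off at -0.61.

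Genes that supply or share the gluconeogenic route were counted over a list of 31, all of them tested. On withdrawal 2 rose (Fbp2 and Pck2) and 5 fell, in all 7 of 31 where 22.1% of all genes were called; the list's median was -0.19. The 5 were Khk, the fructose kinase (-2.10 ± 0.40), Slc2a2, the liver glucose transporter (-1.83 ± 0.30), Sds, serine dehydratase (-1.77), Aqp9, the glycerol channel (-1.38), and the aspartate carrier Slc25a13 (-1.37). Slc2a2, through which glucose leaves the hepatocyte, stood at 4.63, 2.67 and 3.14 in Fah and at 4.84, 2.76 and 3.08 in FCR. Its withdrawn arrays all lay more than 1 below the continuous ones.

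Of 24 genes of the glycogen machinery 23 had a probe; 2 rose and 4 fell on withdrawal (26.1%), near the 22.1% called over all genes, and the median was -0.42. Those that fell included 2 subunits that bring protein phosphatase to glycogen, Ppp1r3b (-2.72 ± 0.62, adjusted p = 0.0183) and Ppp1r3g (-2.13 ± 0.37, adjusted p = 0.00619). Ppp1r3b stood at 1.88, -0.74 and -1.50 in Fah and at 1.05, -2.76 and -0.02 in FCR, so that FCR off was lowest. Phkb, a phosphorylase kinase subunit, and Gaa, the lysosomal glucosidase, fell by 1.31 and 1.09 on the log2 scale. Pgm2 (2.00 ± 0.35) and Ppp1r3d, another targeting subunit (1.55 ± 0.34), rose. Branching enzyme Gbe1 had -0.83, with an adjusted p of 0.219.

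Regulators of the pathway fell in larger number: of 41 listed, 37 had a probe, 18 fell and 1 rose, where 8.22% of all genes fell and 13.9% rose. Their median was -1.11. The list mixes genes that promote the pathway with genes that restrain it, such as the insulin receptor. The count therefore gives no direction for the activity of the pathway. Among those that fell were the transcription factors Cebpa (-2.39 ± 0.51), Cebpb (-1.79), Klf15 (-1.62), Creb3l3 (-1.36), Nr3c1, the glucocorticoid receptor (-1.23), and Ppara (-1.18), the coactivator Lpin1 (-2.38 ± 0.36), the insulin receptor Insr (-1.62) and the glucocorticoid target Tat (-1.74). Pdk4, the kinase that holds pyruvate back from oxidation, was the 1 that rose, by 3.54 ± 0.60 (adjusted p = 0.00559). Foxo1 and Creb1, which carry the insulin and glucagon signals to G6pc, had -0.63 and -0.01, with adjusted p of 0.154 and 0.981. In the genotype comparison none of the 31, 23 or 37 genes passed limma's test, against 0.293% of all genes, and 4, 4 and 5 of them had an unadjusted p under 0.05, near the 11.7% of all genes.

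**Figure D4:**
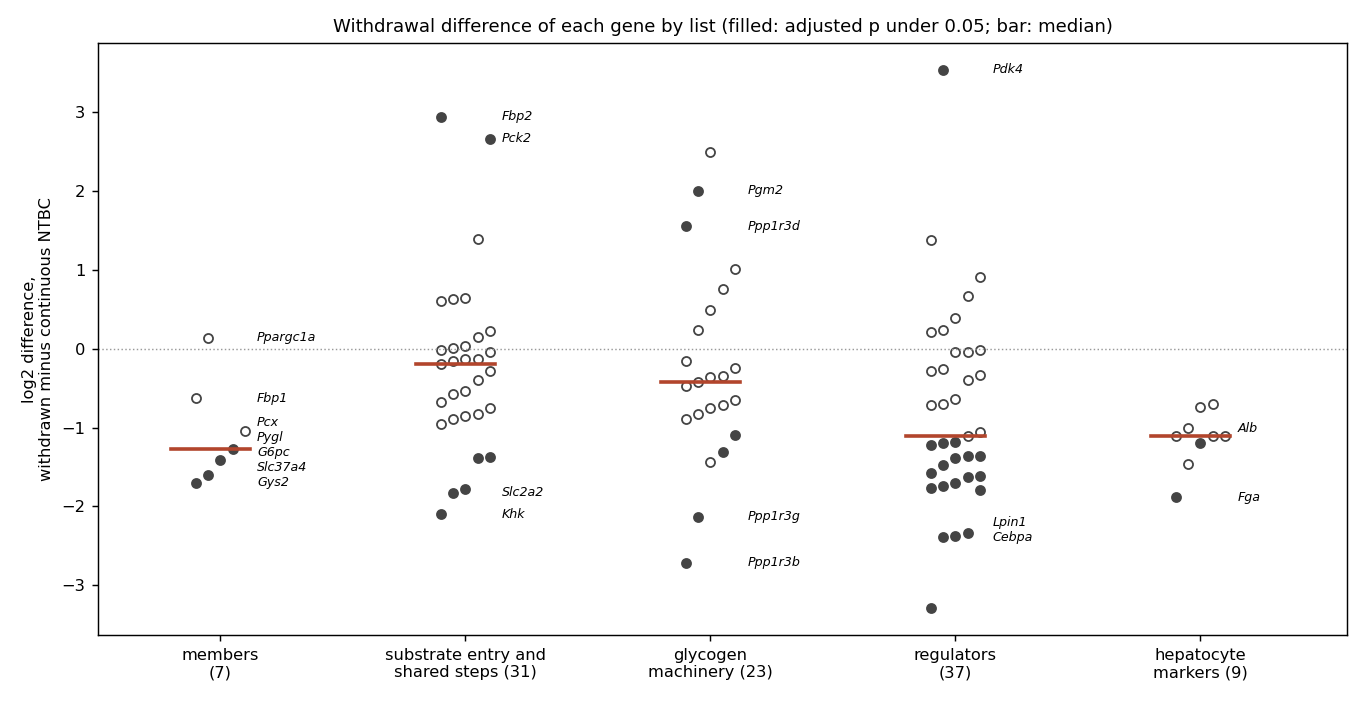
Log2 difference, withdrawn minus continuous NTBC (y axis), of every measured gene of the enzyme group, of 3 wider lists and of the hepatocyte markers (x axis, number of genes in brackets); filled points have an adjusted p under 0.05 and bars are list medians. The medians are -1.27, -0.19, -0.42, -1.11 and -1.11 from left to right, and Pdk4, Fbp2 and Pck2 are the highest points at 3.54, 2.94 and 2.66.

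Markers of hepatocytes and of other cells moved in the same comparison. The 9 hepatocyte markers measured, of 10 listed, all had negative withdrawal differences, -1.89 to -0.71 with a median of -1.11, and 2 of them passed (Fga and Hnf4a, the latter also a listed regulator), where 8.22% of all genes fell and 13.9% rose. Their summed signal, relative to the 75th percentile, was 3934 and 3403 on continuous NTBC, 1820 and 1574 in tumor and 2450 and 1999 in inflamed liver. The sum rests on the brightest probes: the mean log2 level of the 9 markers was 7.66 and 7.37 on continuous NTBC, 6.44 and 6.21 in tumor and 6.14 and 6.69 in inflamed liver, so that FCR off was the highest withdrawn array by the sum and the lowest by the mean. Of the 6 bile duct and progenitor markers 4 rose, with sums of 9.06 to 10.1 on continuous NTBC and 15.6 to 151 on withdrawal. These sums rest mainly on Spp1, at 7.13 in Fah off and 3.74 in FCR 2xoff/on. The mean log2 level of the 6 was -2.33 to -2.03 on continuous NTBC and -1.21 to 1.74 on withdrawal. Of 5 macrophage and neutrophil markers 3 rose (12.7 to 19.6 against 43.5 to 241), of 5 stellate and fibroblast markers 4 rose (8.05 to 8.90 against 21.9 to 91.4), and all 4 markers of cycling cells rose (0.545 to 0.610 against 4.16 to 19.1). The sum of 241, in FCR off, rests mainly on Marco, at 7.62 there. None of 8 T, B and NK cell markers and none of 4 endothelial markers passed limma's test, and 1 and 2 of them had an unadjusted p under 0.05, against 36.4% of all genes. That test pooled both genotypes, and FCR mice lack T, B and NK cells. On continuous NTBC, off and 2xoff/on the mean log2 level of the 8 markers was -4.11, -3.26 and -3.29 in Fah. In FCR it was -5.58, -5.98 and -5.18. Well above background were 5, 8 and 8 of them in Fah and 4, 3 and 4 in FCR. Endothelial sums were 25.6, 14.1 and 33.7 in Fah and 17.1, 32.2 and 20.1 in FCR. The part of these shifts in the enzyme differences was not tested.

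Over the 6 arrays, likeness to each gene was measured as the root mean square difference between mean-centred log2 profiles among 12837 other genes well above background on every array, for members with an SD of at least 0.5. Pygl was nearest to Rpp25l and Olfr557 (0.0579 and 0.0727), Pcx to Trp53inp2 and Scap (0.0834 and 0.0840) and Ppargc1a to Fut11 and Brd3 (0.0926 and 0.139). Slc37a4 and Gys2 both had Vwce as nearest gene (0.111 and 0.133), followed by Mpv17l (0.120) and Mlycd (0.144), and G6pc had Plcxd2 and Fxyd1 (0.255 and 0.275). Within the group Slc37a4 and Gys2 were closest to each other (0.211), and G6pc stood farther from its nearest member, Pygl (0.615). These are descriptions over 6 arrays that share 2 slides.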

How the data were processed

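Each of 6 single-colour Agilent arrays was read with Feature Extraction 10.7.3.1 on a probe design annotated on mm9, per the file headers; the submitters' processing notes name Feature Extraction 10.5. The deposited scanner files hold the processed intensity of each spot, from which Feature Extraction had subtracted background, per the file headers; arrays were not equalised in them. The deposited table of the whole series gives the authors' log2 values, with array medians of 6.46 to 6.48; they correlated with log2 of the processed signal at r = 0.959 to 0.984, and how they were normalized is not stated here.

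Control and outlier spots were left out, spots of a probe were averaged, and 29 probes then missing on an array were dropped, which left 41145. Values are log2 of the processed intensity minus the array's 75th percentile. Accessions were matched to RefSeq (GRCm38.p6, for names and promoters only): 26912 probes were named, 14233 were not, and of several probes per gene (6535 genes) the one with the highest mean was used. The test was limma's (lmFit, eBayes with trend; limma 3.58.1, R 4.3.3) on genes that at least 2 arrays measured well above background. Fits over 6 arrays had 2 residual degrees of freedom. Each fit was checked on simulated data, in which 200 genes were changed. On withdrawal 3402 genes were called in the data. Recovery depends on the share of genes changed, so the percentages below hold for the simulated setting alone. Of log2 changes of 2 among 15381 genes, 40% were recovered for withdrawal, 55% for genotype, 13% for tumor against healthy, 5% for inflamed against normal and 2% for the difference of the responses, and of changes of 4, 92%, 99%, 86%, 83% and 37%.

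The members, the wider lists and the markers were chosen with earlier results of these data known. Members are named in every comparison; up to 4 genes per wider list were named by passing and size, others were named after their values were seen, and the 2 nearest genes by profile. Some genes of the wider lists are counted and plotted but not reported by name here. Alternatives were normexp background correction (offset 50, on the median signal of a spot, in the absence of a mean signal column), quantile normalization, the array median as scale, 2 other filters, eBayes with no trend, probes averaged per gene, the authors' values, each array of a pair left out, slide as a block and regimen as a block. Replicate numbers follow sample order and coincide with regimen and slide. An outlying value in a group of 4 was sought with Dixon's ratio.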

Additional observations from a re-analysis of the deposited data

Results flagged for a closer look

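Pygl in the 4 withdrawn arrays stood at 5.50, 5.50, 5.54 and 5.82, and the highest, FCR 2xoff/on, was set apart from the others: its gap to the nearest array was 0.880 of the whole range, past the limit of Dixon's test at the 5% level. The range is narrow, since the other 3 arrays lay within 0.04 of each other. About 5% of groups are flagged in this way by chance, 7 genes were looked at, and the study's own groups of 1 or 2 arrays cannot be tested.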

How the results depend on the processing

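Slide as a block was run in the fit of 4 group means and regimen as a block for tumor against inflamed liver alone. With the slide block, tumor against healthy and inflamed against normal liver become fitted differences of off minus continuous NTBC. Over the single genes and comparisons, 653 of 715 values kept their direction and their side of the threshold, 8 lost the call, 16 gained it and 38 changed sign; none of the 38 was called. On withdrawal the count of 4 called members was 2 under quantile normalization and 2 to 4 with an array left out. G6pc had -0.98 (adjusted p = 0.0522) under quantile normalization, and Pygl -0.75 (0.0948) there and -0.80 (0.0904) in the authors' values. The count for tumor against healthy liver was 1 with slide as a block (G6pc, -2.49, adjusted p = 0.00572). It also moved with an array left out, as did the number of all genes called. For inflamed against normal liver it was 0 to 1, and for the comparison of the design text 0 to 3, with an array left out. The causes were not tested.

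Signs changed under quantile normalization and in the authors' values, in that order, for Fbp1 (genotype 0.52 and 0.52, withdrawal 0.080 and 0.15, tumor against healthy 0.57 and 0.57, design text 0.41 and 0.37), Pygl (genotype 0.31 and 0.26, difference of responses 0.45 and 0.42, tumor against inflamed 0.46 and 0.40), Slc37a4 (difference of responses 0.29 and 0.28), Gys2 (tumor against inflamed 0.069 and 0.093) and G6pc (design text 0.016 and 0.065). With the array median they changed for Ppargc1a on withdrawal (-0.18), Pygl in 2xoff/on minus off (-0.24) and Fbp1 in tumor against inflamed (-0.048), and with normexp for Fbp1 by genotype (0.12). The dimmer Ppargc1a probe gave -0.50 in 2xoff/on minus off. With an array left out, values of both signs were seen for Ppargc1a (withdrawal -0.027 to 0.30, inflamed against normal -0.86 to 0.27), Pcx (2xoff/on minus off -0.41 to 0.27), Fbp1 (difference of responses -0.044 to 0.47, tumor against inflamed -0.19 to 0.33), Slc37a4 (difference of responses -0.35 to 0.16), Pygl (difference of responses -0.27 to 0.013) and G6pc (tumor against inflamed -0.44 to 1.05).

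Genes called over all settings ranged from 2658 to 4260 on withdrawal (3402 as reported), 0 to 352 by genotype (45), 0 to 665 for 2xoff/on minus off (122), 263 to 2544 for tumor against healthy (778), 54 to 1909 for inflamed against normal (270), 0 to 97 for the difference of responses (0), 4 to 1015 for tumor against inflamed (33) and 0 to 2267 for the design text (0). With the array median the median withdrawal difference of all genes was -0.33, and 42.3% of calls were higher against 62.8% as reported and 52.3% with normexp. The 7 genes' median was then -1.58, against -1.27 as reported, -0.75 under quantile normalization and -0.80 in the authors' values. The size of the drop thus depends on the scaling. With regimen as a block (the replicate block), tumor against inflamed called 1015 genes and still 0 members.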
